A study of Mus musculus with 2 samples.

Results

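The genes described here make, carry, sense and clear retinoic acid, and they were measured in the posterior tissue of mouse embryos with reduced Cdx function. They are 10 genes chosen by name for their place in the pathway: Stra6, Rdh10, Aldh1a2, Crabp1, Crabp2, Rarb, Rarg, Cyp26a1, Cyp26b1 and Cyp26c1. The rule itself uses no array value, but the genes were chosen with earlier results of these data known. All 10 had at least 1 probe, 13 probes in total, among 32762 named genes on the array. With both arrays required, 9 of the 10 were measured, against 25860 genes in all. The exception was Crabp1, whose spot was marked as non-uniform on 1 array.

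The study set embryos that were Cdx2+/-Cdx4-/- (1 intact copy of Cdx2 and none of Cdx4, which encode homeodomain factors of the posterior body) against wildtype embryos. Both groups were at the stage of 13 somites, and posterior tissue, cut at one axial level set by the boundary of the last somite, was pooled from 7 embryos of each genotype. The pools were compared on a pair of 2-colour oligonucleotide arrays. Replicate 1 carried mutant material in the red dye Cy5 and wildtype material in the green dye Cy3, and replicate 2 had the dyes the other way round. The labels name no strain and do not say whether the dye swap used the same pools. The arrays were read as 1 comparison of 1 pool per genotype. On that reading no test between the genotypes was possible. Each error below is an SD over the 2 arrays and was read as technical spread alone.

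Ratios are log2 of mutant over wildtype after background correction and a loess fit within each array. A gene was called higher or lower when it differed at least 1.5-fold (0.585 on the log2 scale) in the same direction on each array. Of all genes measured, 0.209% were called higher and 0.232% lower. When each array was centred on its median in place of the loess fit, the split of the calls moved from 54 higher and 60 lower to 27 and 16. Well above background, by the scanner software's flag, were 79.8% of gene spots in Cy3 and 82.5% in Cy5 on replicate 1, and 77.4% and 80.6% on replicate 2. Cdx4 was 5.75-fold lower in the mutant pool, and Cdx2 had a ratio of -0.05 ± 0.09. All 8 listed markers of the tailbud and all 9 of the presomitic mesoderm were above background. Over all genes measured, the ratios of the 2 arrays had a Pearson correlation of 0.067 and a pooled SD of 0.19. The mean ratio lay within 0.2 of 0 for 90.6% of genes. The number of arrays limits the precision.

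Retinoic acid is made from vitamin A. Retinol is taken into cells, oxidised to retinaldehyde and oxidised again to retinoic acid, which binds nuclear receptors that sit on DNA as pairs with RXR partners. Enzymes of the CYP26 family destroy it. In the elongating embryo the somites and the tissue around them make retinoic acid, while the tailbud breaks it down and so stays free of it. Mouse embryos without Cyp26a1 have a shortened posterior body.

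Because Cyp26a1 and Rarb are textbook targets of the receptors, the RefSeq promoter windows of these genes (GRCm38.p6, 250 bases before to 50 after a transcription start) were searched for the receptor's element on both strands. Of the 10 genes, 8 had such a window, 12 windows in total. Rdh10 and Crabp2 had none and were not searched. The search used the hexamer AGGTCA, its variant AGTTCA, and the forms GGGTCA as well as GGTTCA, and asked for a pair of them in the same orientation with 5 bases between. Such a pair was found in 2 of the 8 genes, Cyp26a1 and Rarb, and in 0.115% of all 27025 genes with a window. Because these 2 known targets prompted the search, their matches do not measure an excess over that share. A match describes letters and is not a binding site. Both windows are printed because these genes, one called lower in the mutant pool and the other dim and not called, hold the same kind of element next to their start. Capitals mark the pair of hexamers with the 5 bases between them.
Cyp26a1, chr19:37697558-37697857, plus strand: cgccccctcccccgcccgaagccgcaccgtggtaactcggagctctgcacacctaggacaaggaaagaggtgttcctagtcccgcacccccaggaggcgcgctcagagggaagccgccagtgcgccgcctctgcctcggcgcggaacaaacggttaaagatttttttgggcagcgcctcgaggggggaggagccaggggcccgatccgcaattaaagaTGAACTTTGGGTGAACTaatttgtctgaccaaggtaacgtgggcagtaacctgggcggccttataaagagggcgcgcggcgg
Rarb, chr14:16575427-16575726, minus strand: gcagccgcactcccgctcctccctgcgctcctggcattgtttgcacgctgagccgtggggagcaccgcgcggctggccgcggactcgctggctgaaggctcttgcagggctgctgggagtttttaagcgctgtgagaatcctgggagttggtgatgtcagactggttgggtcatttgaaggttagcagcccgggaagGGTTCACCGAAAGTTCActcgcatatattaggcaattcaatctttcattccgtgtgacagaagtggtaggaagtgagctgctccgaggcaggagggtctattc

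In Cyp26a1 the pair lies from -32 to -16 relative to the start and reads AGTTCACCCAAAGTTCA on the opposite strand. In Rarb it lies from -53 to -37 and reads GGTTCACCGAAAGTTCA on the gene's own strand. Single hexamers were also found in the windows of Rarg and Stra6, and 46.9% of all genes hold at least 1. Pairs with 2 bases or 1 base between the hexamers, which occur in 0.311% and 0.263% of genes, were not found in any of the 8. The letters TTTATG, a core of sequences that Cdx proteins bind, were not found in these windows either, against 13.6% of all genes. Only these exact letters were searched for, so other forms of the Cdx site were not covered. With 8 genes set against that share, the result is not read as a lack of Cdx sites.

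Clearance of retinoic acid was where the call lay. Cyp26a1, which oxidises retinoic acid in the tailbud, fell 2.06-fold in the mutant, at a mean log2 ratio of -1.04 ± 0.08. Its normalized log2 intensity in the wildtype pool was 10.29 on replicate 1 and 10.30 on replicate 2. In the mutant pool it was 9.19 and 9.32. Wildtype was the brighter pool in both dyes, and the values of the pools did not overlap.

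The fall in Cyp26a1 was visible before any normalization, within each dye. In Cy3 the mean spot brightness was 1041 for the wildtype pool on replicate 1 and 499 for the mutant pool on replicate 2. In Cy5 it was 1739 for wildtype and 812 for the mutant. The log2 ratios after normalization were -1.10 and -0.98, or 2.15-fold and 1.98-fold lower, so that Cyp26a1 missed a 2-fold rule on replicate 2 alone. The scanner software's own p-values for this spot, as deposited, were 2.1e-10 and 2.1e-08; they cover the technical error of a spot and not differences between embryos. A lower mean ratio was found for 8 of the 25860 genes. With median centring, which leaves a dye trend in place, the ratios of Cyp26a1 were -0.65 and -1.58, still past 1.5-fold on each array.

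Cyp26a1 has a second, dimmer probe. The probe used above lies on chromosome 19 from 36924741 to 36924800 in the files' coordinates, whose build is not named, and the other from 36924015 to 36924074. The second probe gave -0.89 and -0.78, with a mean of -0.84 ± 0.08, or 1.79-fold lower. Both probes passed the 1.5-fold rule by themselves. Among 1925 genes of like brightness (within 0.5 log2 units of the first probe) the SD between arrays was 0.14, so that the Cyp26a1 ratio was larger than the technical spread at its brightness.

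The other clearance enzymes were dim. Cyp26b1, which acts mainly in hindbrain and limb, had ratios of 0.01 and 0.09, and a mean of 0.05 ± 0.06. Its Cy3 signals, 128 on replicate 1 and 127 on replicate 2, lay below the 95th percentile of the negative control spots, 137 and 131. Its Cy5 signals of 124 and 112 lay above theirs, 99.6 and 101. Cyp26b1 was thus above that level in 2 of 4 signals, and it was not called. Cyp26c1, the neighbour of Cyp26a1 on chromosome 19, had ratios of -0.09 and 0.10, and a mean of 0.00 ± 0.13. All 4 of its signals exceeded the 95th percentile of the negative controls. In Cy3 they were 140 and 146, close to that level, and in Cy5 139 and 150. The sign of Cyp26c1 changed with the processing, from 0.00 to -0.08, and its values show no direction.

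**Figure D1:**
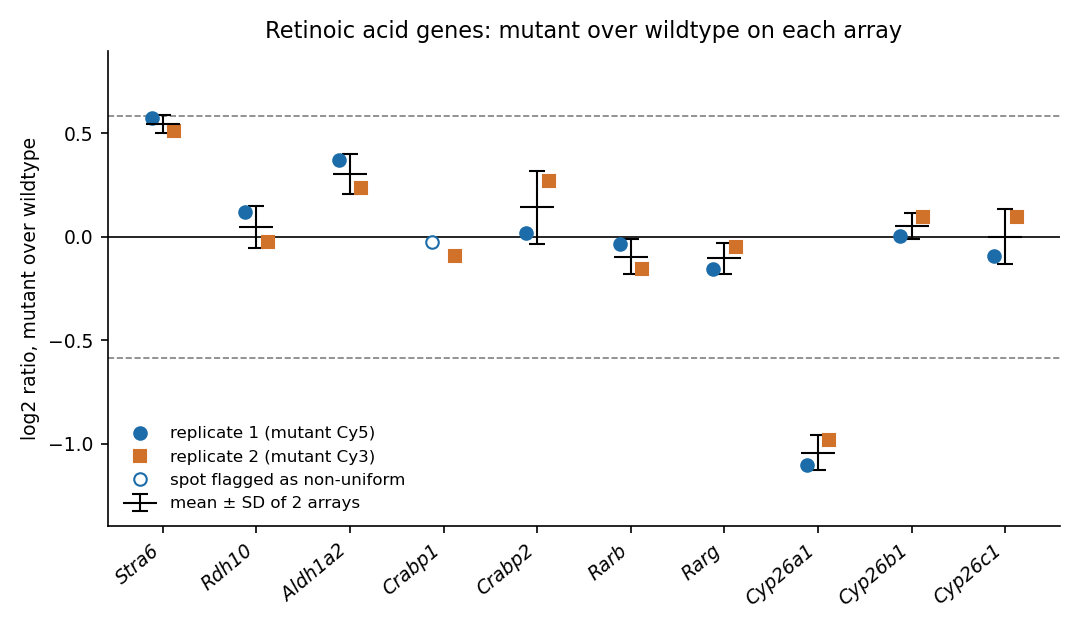
Log2 ratio of mutant over wildtype (vertical axis) for each of the 10 genes (horizontal axis) on replicate 1 (circles, mutant in Cy5) and replicate 2 (squares, mutant in Cy3), with the mean and SD of the 2 arrays as bars; the open circle is a spot marked as non-uniform, and dashed lines mark 1.5-fold. Cyp26a1 lies at -1.10 and -0.98, beyond the lower line on both arrays, Stra6 lies just inside the upper line at 0.58 and 0.51, and the others lie between the lines.

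Of the 10 genes, those for uptake and synthesis of the signal (Stra6, Rdh10 and Aldh1a2) did not yield a call. Stra6, the membrane receptor through which cells take up retinol from its carrier in blood, came nearest, with a log2 ratio of 0.54 ± 0.04 (1.46-fold higher). Its normalized log2 intensity was 8.32 and 8.51 in the wildtype pool and 8.89 and 9.02 in the mutant pool. Every mutant value lay above every wildtype value. The ratios were 0.58 and 0.51, or 1.49-fold and 1.43-fold, and both fell short of 1.5-fold.

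Stra6 is the member just outside the threshold. At 1.3-fold on each array it was called higher, as were 0.538% of all genes, and Cyp26a1 was called lower, as were 0.75%. Its spread between arrays was smaller than that of 3148 genes of like brightness, whose SD was 0.14. Including Stra6, 75 genes (0.29% of those measured) had ratios at least as high on both arrays. In Cy3 its unnormalized brightness was 306 for wildtype and 425 for the mutant, and in Cy5 509 and 653. With the scanner software's own ratio Stra6 passed the 1.5-fold rule, at 0.70 and 0.63. With median centring its ratios were 0.96 and 0.00, and the mean of 0.48 kept its sign.

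Rdh10, the dehydrogenase for the first oxidation of retinol, had ratios of 0.12 and -0.02 and a mean of 0.05 ± 0.10. Its log2 intensity was 8.28 and 8.50 in the wildtype pool, and both mutant values lay between these. With median centring the sign of its mean turned, to -0.01.

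Aldh1a2, the enzyme that makes retinoic acid in the paraxial mesoderm, had a log2 ratio of 0.30 ± 0.10 (1.23-fold). The brightest of its 3 probes read 8.42 and 8.33 in wildtype and 8.79 and 8.56 in the mutant. The mutant values were the higher ones on each array, with ratios of 0.37 and 0.23, but stayed below 1.3-fold. A dimmer probe of Aldh1a2 gave 0.14 and 0.40, with a mean of 0.27 ± 0.18. The remaining probe, at -0.11 and 0.17, was above background only for the mutant pool on replicate 1 and was not used. Compared within a dye and without normalization, the first probe read 328 and 325 in Cy3 and 447 and 614 in Cy5 for wildtype and mutant, so the pools differed in Cy5 and hardly in Cy3; these raw values come from different arrays. With median centring the ratios were 0.75 and -0.24, of opposite sign. Ratios at least as high as those of Aldh1a2 on both arrays were found for 337 genes, itself included.

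Aldh1a2 is known as a somite gene, and markers of somites moved in the same direction. Of 7 measured somite markers 4 rose (Meox1 4.34-fold, Tcf15 4.06-fold, Foxc2 2.56-fold and Foxc1 2.27-fold), with a list median of 1.18 and a range of mean ratios from 0.02 to 2.12. Their summed intensity was 3049 and 3196 in the wildtype pool and 5181 and 5108 in the mutant pool. The probes of Pax1, Uncx and Myf5 did not count as measured on both arrays. The tailbud markers, from tissue known for Cyp26a1, had 1 of 8 lower (Greb1, 1.73-fold) and none higher, with a median of -0.12. Their summed intensity was 11792 and 11752 in wildtype and 8825 and 8620 in the mutant. The brightest probes, those of brachyury (symbol T, mean ratio -0.49, not called) and Greb1, carry most of that sum. Wnt3a had a mean of -0.46, and Fgf17 a mean of -0.19 with arrays of opposite sign. Fgf8, Nkx1-2, Evx1 and Sp5 had means of 0.10, 0.00, -0.05 and 0.29. The part of these shifts in the ratios of Aldh1a2 and Cyp26a1 was not tested. In such pooled tissue, fewer cells of a type and less RNA per cell cannot be told apart.

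**Figure D2:**
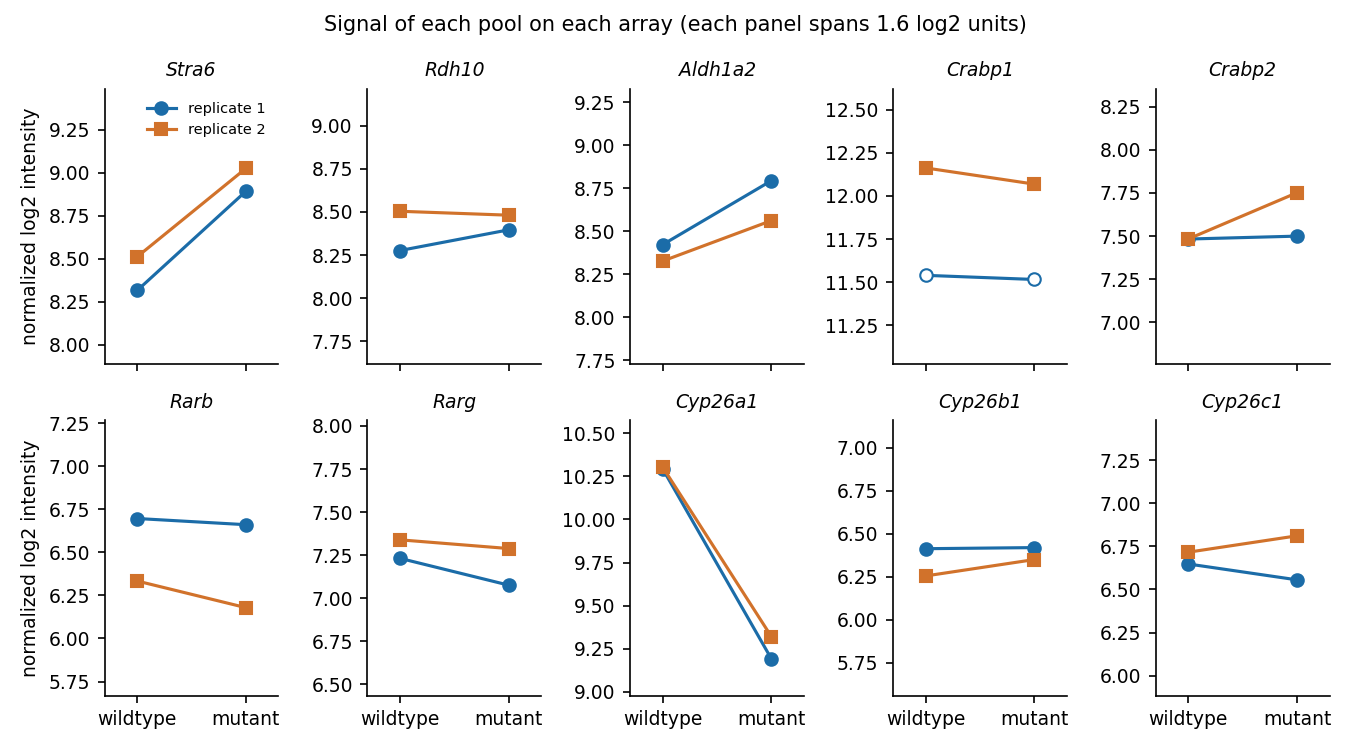
Normalized log2 intensity (vertical axis, each panel spanning 1.6 log2 units) of the wildtype and mutant pools (horizontal axis) on replicate 1 (circles) and replicate 2 (squares), 1 panel per gene with a line joining the pools of an array; open symbols are the non-uniform Crabp1 spot. The lines of Cyp26a1 drop from 10.29 and 10.30 to 9.19 and 9.32, those of Stra6 and Aldh1a2 slope upward on both arrays, and those of Rdh10 and Cyp26c1 slope in opposite directions.

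The binding proteins gave no call. Crabp1 and Crabp2 carry retinoic acid inside the cell, Crabp2 to the nuclear receptors. The single usable Crabp1 spot, on replicate 2, had a ratio of -0.09, from 12.16 in wildtype and 12.07 in the mutant. The spot on replicate 1, marked as non-uniform, read -0.02. Crabp2 had ratios of 0.02 and 0.27, with a mean of 0.14 ± 0.18, so that its difference was smaller than its spread. Wildtype read 7.48 on both arrays, and the mutant differed from it on replicate 2 alone, at 7.75.

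Among the receptors, Rarg, which is prominent in the tailbud, had ratios of -0.16 and -0.05 and a mean of -0.10 ± 0.07. Its wildtype values of 7.23 and 7.34 and its mutant values of 7.08 and 7.29 overlapped. Rarb, both a receptor and a target of retinoic acid, had ratios of -0.04 and -0.15 and a mean of -0.10 ± 0.08. Rarb was dim: 3 of its 4 signals exceeded the 95th percentile of the negative controls, and it turned to 0.02 with median centring. Among 10804 genes of its brightness the SD between arrays was 0.21, wider than the Rarb ratio. Rarb was not called. Cyp26a1 and Rarb, whose promoter windows are printed above, thus had ratios of -1.04 and -0.10.

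Over the 9 genes measured on both arrays, 1 was called lower and none higher, against 0.232% and 0.209% of all genes. Their median ratio was 0.05, against 0.00 over all genes measured. The median was 0.01 on replicate 1 and 0.09 on replicate 2. Above 0 on both arrays were 4 genes (Stra6, Aldh1a2, Crabp2 and Cyp26b1), and below 0 on both were 3 (Cyp26a1, Rarb and Rarg). Among all genes 23.3% lay above 0 on both arrays and 24.4% below.

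**Figure D3:**
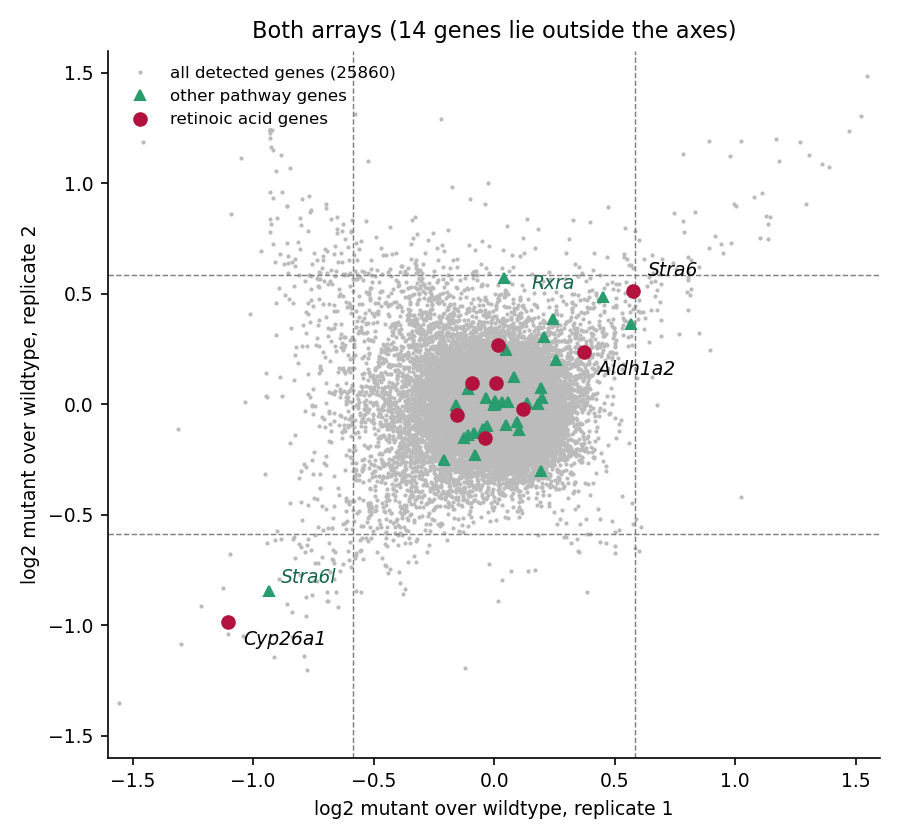
Log2 ratio of mutant over wildtype on replicate 1 (horizontal axis) against replicate 2 (vertical axis) for the 25860 genes measured (grey), the 9 retinoic acid genes measured on both arrays (red circles) and 33 further genes of the pathway (green triangles), with dashed lines at 1.5-fold; 14 genes lie beyond the axes. Cyp26a1 and Stra6l sit beyond both lower lines, Stra6 sits at the corner of the upper lines, and most others lie within the central cloud.

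Further genes of the pathway were read from a list of 40, of which 33 were measured. None was called higher and 1 was called lower, Stra6l, and the list median was 0.00. Stra6l encodes a relative of STRA6 that also takes up retinol from its blood carrier, and the files name its probe by an older clone name. It fell 1.85-fold, with ratios of -0.94 and -0.84 and a mean of -0.89 ± 0.06. Its direction was thus opposite to that of Stra6; the difference between them was not tested. The mean of Stra6l ranged from -1.20 to -0.74 over the alternatives that used both arrays.

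By role, 5 of 8 genes for retinol uptake, transport and storage were measured, and Stra6l was the one called. Of 18 genes for oxidation and reduction of retinoids, 14 were measured and none was called, with means from -0.15 to 0.32. They include Dhrs3, which turns retinaldehyde back into retinol, at 0.07 ± 0.09, and Aldh1a1 and Aldh1a3, the relatives of Aldh1a2, at -0.05 ± 0.35 and -0.01 ± 0.16. None of the 5 nuclear receptors was called. Rxra, the main partner of the retinoic acid receptors, was the farthest from 0 among them at 0.45 and 0.49 (mean 0.47 ± 0.03), and it passed at 1.3-fold. With median centring Rxra read 0.91 and -0.12. Rara had 0.00 ± 0.04. The 8 coregulators, all measured, ranged from -0.23 (Sin3a) to 0.23 (Nrip1), and none was called.

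Genes known to respond to retinoic acid in embryos or embryonal cells formed a list of 29, which holds Cyp26a1, Rarb and Crabp2 as well as Dhrs3. Of 25 measured, 1 was called higher, Meis1, and 1 lower, Cyp26a1. The median was 0.01. Meis1, a homeodomain partner of Hox proteins, rose 1.66-fold, with ratios of 0.85 and 0.62 and a mean of 0.73 ± 0.16. The call of Meis1 ended with median centring, where its ratios were 1.33 and -0.03. Short of the rule lay Hoxb1, an anterior Hox gene, at 0.54 and 0.50, the nuclear receptor gene Nr2f1 at 0.54 and 0.47, and Meis2 at 0.41 and 0.34. Nr2f1 is dim, and its mean of 0.51 moved to 1.27 with the scanner software's ratio and to 0.38 without background subtraction; it passed the rule with the software's ratio, with a normexp offset of 16 and with median centring. Tgm2, a transglutaminase, lay at -0.42 and -0.32. Of the list, 11 genes (44% of those measured) lay above 0 on both arrays and 8 (32%) below. Among all genes these shares were 23.3% and 24.4%, so both directions were more frequent in the list.

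**Figure D4:**
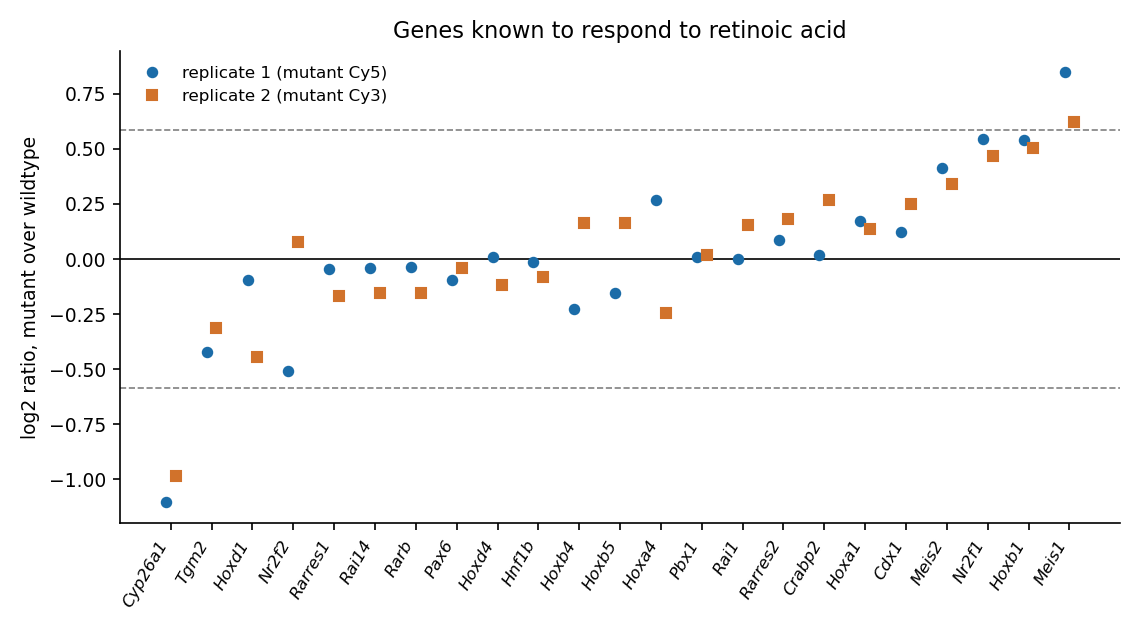
Log2 ratio of mutant over wildtype (vertical axis) on replicate 1 (circles) and replicate 2 (squares) for 23 of the 25 measured genes known to respond to retinoic acid (those not also on the list of further pathway genes), in order of their mean (horizontal axis), with dashed lines at 1.5-fold. Cyp26a1 lies apart at the low end, Meis1 is the gene above the upper line on both arrays, and Hoxb1 and Nr2f1 lie just under that line.

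Caudal genes whose domain retinoic acid is known to restrict formed a list of 4, all measured and none called, with a median of 0.05. Wnt8a had 0.45 and 0.45, and Wnt3a, the ligand that keeps tailbud progenitors, had -0.43 and -0.49. The ratio of Wnt8a, a dim gene, was 1.02 with the software's ratio and 0.32 without background subtraction. Fgf8, the tailbud growth factor, lay at 0.10 ± 0.11, and Nkx1-2 at 0.00 ± 0.11.

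**Figure D5:**
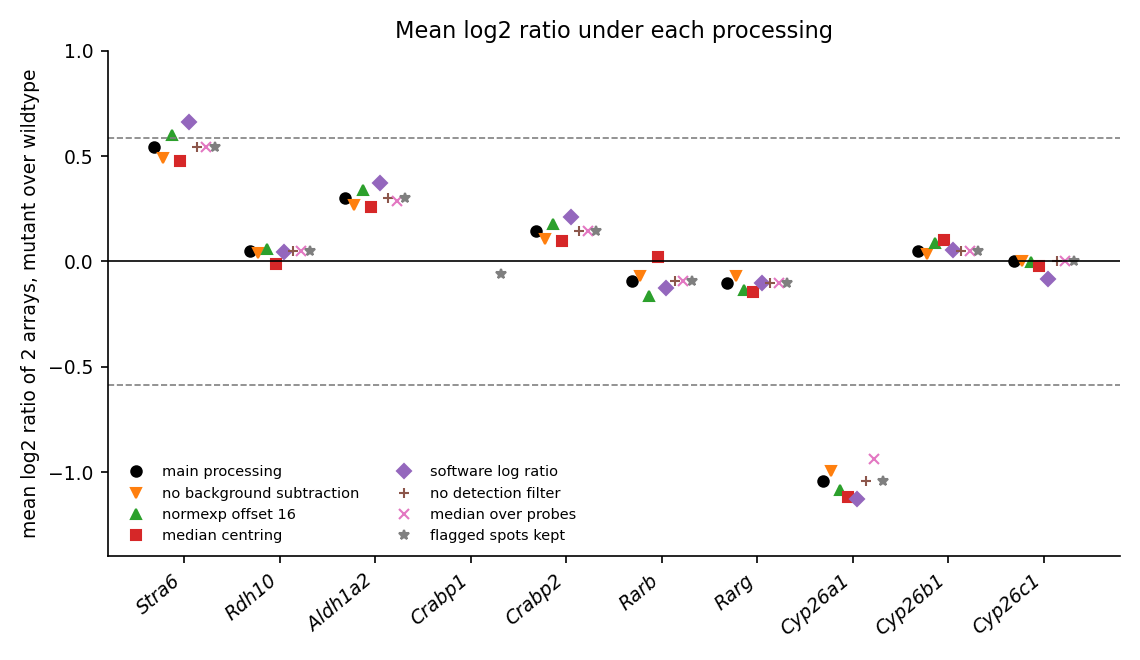
Mean log2 ratio of the 2 arrays (vertical axis) of each of the 10 genes (horizontal axis) under the processing used here (black circles) and 7 alternatives (other symbols), with dashed lines at 1.5-fold. Cyp26a1 stayed between -1.13 and -0.94, Stra6 between 0.48 and 0.66 and Aldh1a2 between 0.26 and 0.37, while Rdh10, Rarb and Cyp26c1 crossed 0; Crabp1 has a value only with marked spots kept.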

How the data were processed

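Each file is the scanner output of an array. Per the file headers, the authors deposited uncorrected intensity values in Cy3 and Cy5, as the mean of a spot and the median of its local background. They also deposited the software's log10 ratio of Cy5 over Cy3, made after background detrending and dye normalization, and its p-value for the spot. That software, Agilent Feature Extraction, has version 7.5.1 per the file headers and 9.5.3 per the submitters' processing notes.

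With limma 3.58.1 in R 4.3.3, signals were corrected by normexp (offset 50) and normalized by loess within each array, control spots at weight 0, and turned to mutant over wildtype by the labelled dyes. Levels are after Aquantile normalization. Non-uniform spots were left out (205 and 90). The brightest probe well above background in a genotype on both arrays stood for a gene. Symbols came from a RefSeq table of GRCm38.p6: 19429 probes by accession, 3624 by symbol, 2908 by synonym; 14508 kept the files' name, and 544 matched several genes and were not used.

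The members and lists were chosen with earlier results of these data known. All members were named, and from each list the genes past the 1.5-fold rule, up to 6, or with none the 2 farthest from 0. Rxra, Rara, Dhrs3, Aldh1a1, Aldh1a3, Sin3a, Nrip1, Hoxb1, Nr2f1, Meis2, Tgm2, Fgf8, Fgf17, Nkx1-2, Dhrs9, T, Evx1, Sp5, the neighbours of Cyp26a1 and the genes with a direct repeat were named after their values were seen. Marker lists of tissues other than somites and tailbud are given in the closing section. A gene of these lists is not reported here. The steps were tested on simulated data, in which only bright probes were changed and no spot was marked as non-uniform. That test does not cover dim genes such as Cyp26b1, Cyp26c1 and Rarb.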

Additional observations from a re-analysis of the deposited data

How the results depend on the processing

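No paired analysis was possible because the arrays were read as 1 pool per genotype. The ratios themselves are taken within each array. For all values given here that moved, the cause was not tested. Cyp26a1 passed the 1.5-fold rule under every alternative run at that fold, on single arrays too, and its mean kept its sign. Against 1 member called, 2 were called with the software's ratio, at 1.3-fold and with the software's p-value under 0.01 on each array (an alternative chosen after seeing the data), Stra6 being the addition each time, and 0 at 2-fold. Among the other pathway genes, against 1, the count was 2 at 1.3-fold and by the software's p-value, 0 at 2-fold, and from 1 to 2 on single arrays, where dye effects remain; Dhrs9 was added without replicate 2. Among the responding genes, against 2, it was 4 at 1.3-fold and 0 at 2-fold. Among the caudal genes, against 0, it was 1 with an offset of 16 and 1 with the software's ratio (Wnt8a higher), 1 by the software's p-value (Wnt3a lower) and 2 at 1.3-fold (Wnt8a higher, Wnt3a lower). Over all genes, against 114 called, there were 43 with median centring, 355 with the software's ratio, 27 at 2-fold, 333 at 1.3-fold, 189 by the software's p-value, and from 439 to 550 on single arrays, with opposite balance: 313 higher and 126 lower without replicate 1, 92 higher and 458 lower without replicate 2. Signal over background was low for Cyp26b1, Cyp26c1 and Rarb.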

Other observations

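Genes next to Cyp26a1 on chromosome 19 were read in the order of the RefSeq table, 5 protein-coding genes on either side, all measured. None of the 10 passed the 1.5-fold rule. Below 0 on both arrays were Exoc6, a subunit of the exocyst, at -0.31 and -0.51, Myof, a membrane repair protein, at -0.18 and -0.41, and Ffar4, a fatty acid receptor, at -0.15 and -0.11. Exoc6 and Myof are the nearest genes on either side of the pair Cyp26c1 and Cyp26a1. Rbp4, the retinol carrier of blood, lies 4 genes away and read 0.04 and 0.57. Ide, at 0.07 and 0.02, and Kif11, at 0.005 and 0.008, also lay above 0 on both arrays. Among all genes 24.4% lay below 0 on both arrays and 23.3% above. A shift of the region as a whole was not tested.

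The direct repeat with 5 bases between its hexamers was found in the windows of 31 genes, of which 6 were measured. Besides Cyp26a1 and Rarb these were Blvrb at -0.26, Cfap45 at -0.18, Prokr2 at -0.07 and Prss27 at -0.01, and none of these 4 passed the rule.

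Markers of other tissues of the dissected region differed between the pools as well. The lists were chosen with earlier results of these data known, so their counts do not measure the shift of a tissue. Of 9 presomitic mesoderm markers 3 rose and none fell (median 0.12). Ripply2, a gene of the forming somite boundary, rose 4.30-fold, the protocadherin gene Pcdh8 3.96-fold and the Notch ligand gene Dll1 1.59-fold. The 6 not called had means from -0.12 to 0.34. Of 9 hindgut markers 3 rose and none fell (0.14): Trh 3.95-fold, Nepn 3.65-fold and Spink1 2.01-fold. The 6 not called there had means from -0.04 to 0.33. Of 11 endothelial markers 2 fell and none rose (-0.37): the tight junction gene Cldn5 2.09-fold and Sox18 1.62-fold. In the neural tube list 1 of 5 rose and none fell (0.37): Sox2, 1.75-fold. Means of the 4 not called ran from -0.09 for Nkx6-1 to 0.46 for Irx3. Nkx6-1 and Pax6 had negative ratios on each array. The median of this list is the mean of Sox1, whose arrays differed, at 0.04 and 0.70. None of 6 surface ectoderm markers passed (0.23), with Wnt6 at 0.53 and Krt18 at 0.28 the farthest from 0. None of 8 lateral plate and intermediate mesoderm markers passed (-0.04), with Lhx1 at 0.49 and Hand2 at -0.39 the farthest; the arrays disagreed on Lhx1, with an SD of 0.73. Probes that did not count as measured on both arrays were those of Sox3, Olig2 and Neurog2 (neural tube), Erg (endothelium) and Tfap2a (surface ectoderm). The part of these shifts in the ratios above was not tested.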
